A study of Homo sapiens with 6 samples.

Results

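Kinesin genes were taken as the protein-coding rows of the gene count table whose symbol is KIF followed by a digit or a C, which gave 43 genes of 58735. They were compared between 3 control libraries and 3 libraries of cells given 5 µM EPZ-5676, a small-molecule inhibitor of the histone H3 methyltransferase DOT1L. All 6 libraries are polyadenylated RNA of SW1990, an established human pancreatic ductal adenocarcinoma line, and no genetic change separates the groups. The sample characteristics call the controls untreated, while the treatment protocol gives them DMSO, the solvent, in equal volume. How long the cells were treated was not found in the labels. The labels do not tie replicates to separate cultures, so every p-value here measures the spread among these 6 libraries alone, and that spread may be technical. One member, KIF1BP, is not a motor: it encodes a protein that binds kinesin motor domains and blocks their contact with microtubules.

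Kinesins are motor proteins that use ATP to walk along microtubules or to take them apart. Mitotic kinesins build the bipolar spindle, align the chromosomes and position the cleavage furrow, and their mRNAs are known to accumulate in the G2 and M phases of cycling cells. Transport kinesins carry vesicles, mitochondria and mRNA through the cytoplasm of non-dividing as well as dividing cells. On this knowledge 14 members were grouped as mitotic, 15 as transport, and the remaining 14, among them ciliary kinesins and regulators of microtubule growth, as other kinesins.

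Many genes of G2 and M phase carry near their start the element TTTGAA, called the cell cycle genes homology region, often downstream of CCAAT boxes, which bind NF-Y. RefSeq start-site windows (GRCh38.p14, 250 bases before to 50 after the start) were found for 35 of the 43 members, 7 of which have more than 1 window. TTTGAA on either strand was present in 10 of 14 mitotic kinesins, 1 of 11 transport kinesins and 0 of 10 other kinesins, against 15.2% of all 35116 windows. CCAAT on either strand was present in 11 of 14, 4 of 11 and 4 of 10, against 34.6% of all windows. GGGCGG, the GC box bound by SP factors, was in 12 of 14, 11 of 11 and 10 of 10, against 45% of all windows. No match overlapped one of another motif. Members were counted by gene, with a match in any window of the gene, and the background by window. The shares are therefore not like for like. The stretches around the TTTGAA matches are shown because most mitotic and few transport kinesins have one. The sequence itself was not used to group them. The grouping did draw on knowledge of G2 and M phase genes, for which this element is known. The motifs were also chosen after values were seen, so the separation gives no independent support for the grouping. Each is 30 bases, 5′ to 3′ on the strand of the gene, with the match in capitals, TTCAAA where it lies on the other strand; the stretch of KIF20B holds 2 adjoining matches. In the mitotic kinesins the matches begin between -55 and 31 counted from the start site.
KIF4A, chrX:70290058-70290087, plus strand: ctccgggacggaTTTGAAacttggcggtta
KIF4B, chr5:155013746-155013775, plus strand: ctctgggagggaTTTGAAacttggcggtta
KIF23, chr15:69414282-69414311, plus strand: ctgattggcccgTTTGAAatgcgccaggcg
KIF18A, chr11:28108149-28108178, minus strand: aagtggcttgggTTTGAAtattgtggttga
KIF18B, chr17:44947754-44947783, minus strand: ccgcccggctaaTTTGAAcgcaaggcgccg
KIF20B, chr10:89701602-89701631, plus strand: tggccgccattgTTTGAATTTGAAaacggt
KIF11, chr10:92593090-92593119, plus strand: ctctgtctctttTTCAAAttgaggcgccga
KIF15, chr3:44761747-44761776, plus strand: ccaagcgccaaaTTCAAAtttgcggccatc
KIF14, chr1:200620733-200620762, minus strand: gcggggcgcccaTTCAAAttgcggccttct
KIFC1, chr6:33391815-33391844, plus strand: tggccgttggaaTTCAAAagtggcgggtgt
KIF5B (transport), chr10:32056548-32056577, minus strand: agtgcagtaaaaTTTGAAtctgcgaccccg
The match of KIF5B begins at -140, farther from the start than any of the mitotic ones. KIF2C, KIF20A, KIF22 and KIF2B are the mitotic kinesins with no match in these windows. A match is a run of letters and not a measured binding site.

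The arrangement is shown at greater length for 3 members picked as examples, as the 120 bases that end just before the start site. The TTTGAA element is in capitals, and so is the CCAAT box, which reads ATTGG where it lies on the other strand. KIF4A and KIF23 hold both, and the transport kinesin KIF1C holds neither. Other members differ: in their whole windows the mitotic kinesin KIF2C, also lower after treatment, holds neither, and the transport kinesin KIF5B holds both. Whether these motifs go with the fold changes was not tested.
KIF4A, chrX:70289984-70290103, plus strand: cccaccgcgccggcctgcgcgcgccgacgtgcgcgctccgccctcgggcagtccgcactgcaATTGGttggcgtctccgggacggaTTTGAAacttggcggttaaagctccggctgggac
KIF23, chr15:69414229-69414348, plus strand: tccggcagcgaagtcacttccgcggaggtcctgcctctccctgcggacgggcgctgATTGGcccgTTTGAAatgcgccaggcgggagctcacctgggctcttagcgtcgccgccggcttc
KIF1C, chr17:4997830-4997949, plus strand: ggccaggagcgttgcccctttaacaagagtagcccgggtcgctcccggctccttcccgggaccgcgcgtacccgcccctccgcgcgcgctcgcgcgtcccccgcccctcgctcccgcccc

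The libraries held 33970420 to 39749648 reads assigned to genes. Treated replicate 1 stood apart from the other treated libraries on the first and second principal components. On the first, which separated the groups, it was at 28.39 against 9.69 and 6.84, with the controls from -19.78 to -10.97. On the second it was at 17.82 against -18.89 and -14.08. The keratins KRT8, KRT18 and KRT7 were abundant, at control means of 2658, 1194 and 1883 CPM (read counts scaled to TMM-adjusted library sizes), while 3 other epithelial markers were low or absent: EPCAM at 1.89 CPM, KRT19 at 0.430 CPM, and CDH1 at 0 reads in every library. Of markers of other cells, the 5 acinar and islet genes had 0 reads, the 5 leukocyte genes summed to 2.24 to 8.10 CPM in the controls and 3.85 to 5.82 CPM after treatment, and the 4 endothelial genes to 1.64 to 3.18 and 1.37 to 3.25 CPM. The 6 fibroblast genes summed to 83.9 to 93.8 CPM across controls and 93.85 to 100 CPM after treatment, mostly COL1A1 and DCN. COL1A1 was higher (0.48 ± 0.13, adjusted p = 0.00676) and DCN (-0.46 ± 0.14, 0.0164) and LUM (-1.04 ± 0.30, 0.0105) lower after treatment, all 3 without a call under the correction for GC content and length described below, and their part in the results was not tested.

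Of the 43 kinesin genes, 33 had enough reads to be tested, each with at least 31 reads in every library. In edgeR's quasi-likelihood test over 15496 genes, 13 of the 33 were lower and 6 higher in treated cells (adjusted p under 0.05), against 18.7% of all tested genes lower, 15% higher and 33.7% called either way. Among mitotic kinesins 8 of 12 were lower and 0 higher, with a median log2 fold change of -0.63, whereas among transport kinesins 3 of 12 were lower and 4 higher, with a median of -0.02. Among other kinesins 2 of 9 were lower and 2 higher, with a median of -0.17, and the median of all tested genes was -0.05. Whether the classes differ from one another was not tested. All 3 treated libraries lay below all 3 controls for 9 of the 12 mitotic kinesins and 3 of the 12 transport kinesins, against 24.2% of all tested genes. All 3 lay above the controls for 1 mitotic and 5 transport kinesins, against 21.8%. The mitotic count of 8 was 5 without control replicate 3 and 5 without treated replicate 1, and the transport count of 4 higher was 2 without treated replicate 1 and 2 without treated replicate 3. The transport count of 3 lower was 1 without control replicate 1 and 1 without treated replicate 1. Over all 33 kinesins the count of 13 lower was 8 without control replicate 3 and 6 without treated replicate 1, and the 2 other kinesins called lower were 0 without control replicates 1 or 3 or treated replicates 1 or 3.

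**Figure D1:**
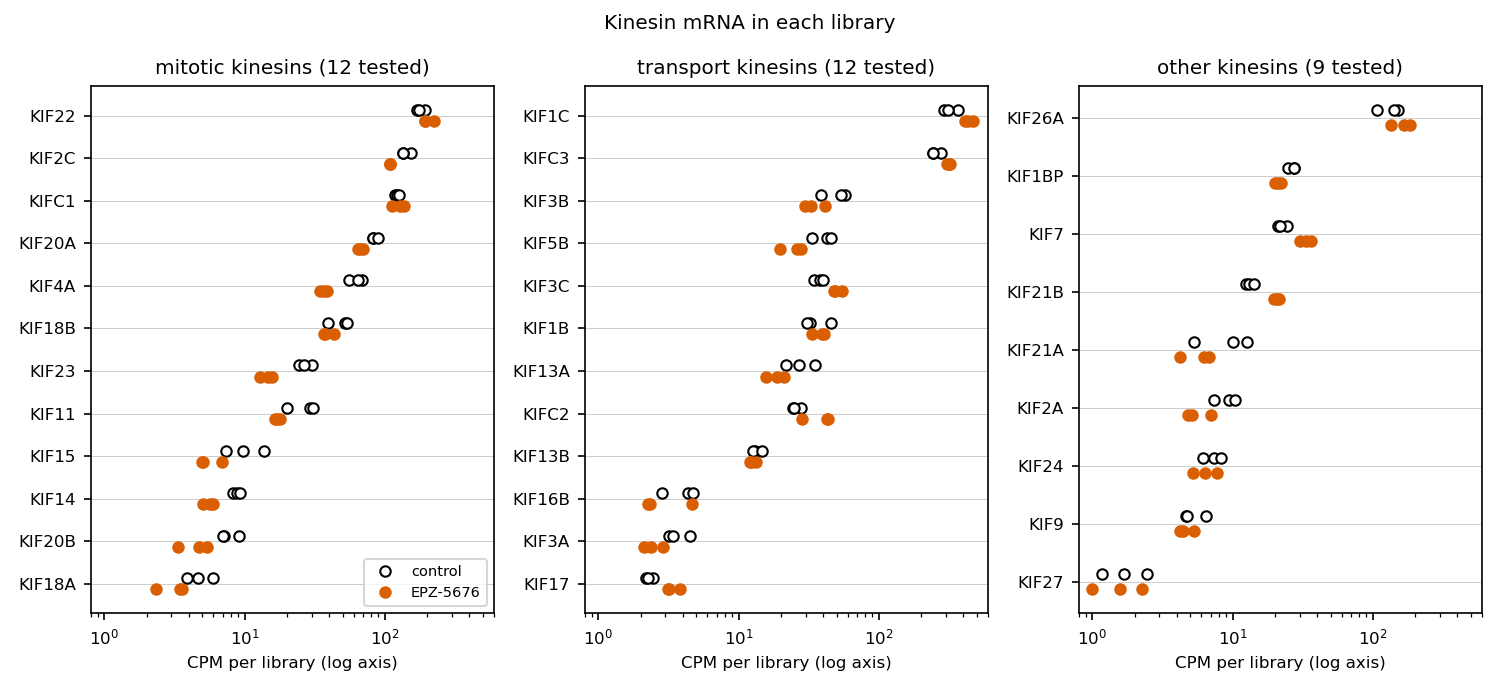
CPM of each tested kinesin gene in each library on a log axis, open circles for the 3 controls and filled circles for the 3 treated libraries, with 1 panel per class and genes ordered by control mean. Treated circles lie to the left of the controls for most mitotic kinesins, for example KIF4A and KIF23, while transport kinesins lie on either side, with KIF1C to the right and KIF5B to the left.

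The fold changes of kinesin genes followed the GC content of their transcripts, as did those of the transcriptome. Across the 33 tested members Pearson's r between GC content and log2 fold change was 0.856 (Spearman's rho 0.831), and across all tested genes r was 0.587 (rho 0.661). These points share the same 6 libraries and are not independent, so no p is given. A fit that removed smooth trends with GC content and transcript length from each library, called the correction here, therefore accompanies the fold changes. It also removes any treatment effect that follows those properties. With the correction 7 of the 33 kinesins were lower and 0 higher, against 5.58% and 5.4% of all tested genes. Of these 7, 5 were mitotic, 1 transport and 1 other, and 4 had been called lower before it. The mitotic median was -0.25, the transport median -0.07, the median of other kinesins -0.20 and that of all genes -0.0045. All 12 tested mitotic kinesins had a log2 fold change below 0 with the correction, and 10 of 12 without it. Some of the corrected values were near 0, among them KIF11 (-0.08 ± 0.12) and KIF18A (-0.08 ± 0.24). Both rose above 0 in a corrected fit that left out a library (up to 0.015 and 0.085).

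**Figure D2:**
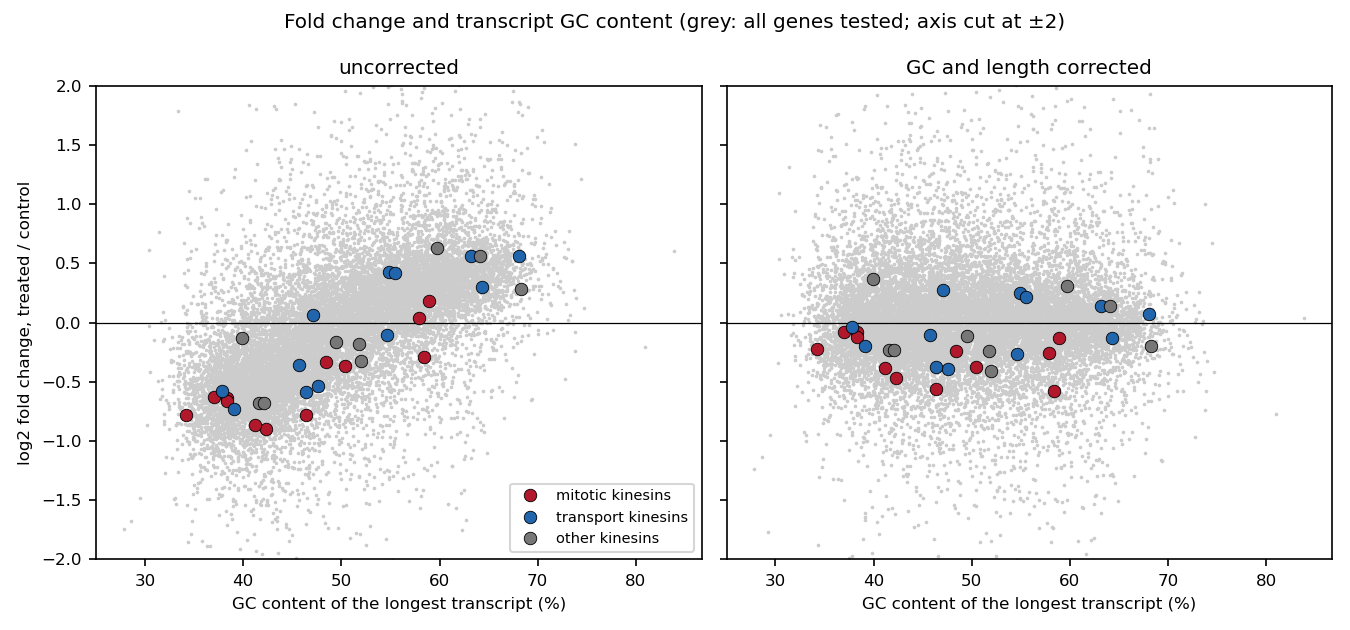
Log2 fold change, treated over control, against the GC content of the longest transcript in percent, for all tested genes in grey and the 3 kinesin classes in colour, before the correction at left and after it at right. The axis ends at 2 in either direction, which leaves out 97 genes at left and 67 at right, none of them a kinesin. At left the kinesins rise with GC content (r = 0.856), and at right they do not (r = 0.188), with all mitotic kinesins below 0.

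To set the classes beside genes of like composition, all tested genes were divided by GC content into 5 groups of equal size. In the group with the lowest GC content (27.8 to 41.5%), 47.6% of all genes were lower, as were 4 of 5 mitotic and 1 of 2 transport kinesins. In the next group (41.5 to 46.6%) 32.6% of all genes were lower, and so were 2 of 2 mitotic and 1 of 2 transport kinesins. In the middle group (46.6 to 52.3%) 10.6% of all genes were lower, along with 2 of 2 mitotic kinesins (KIF2C and KIF20A) and 1 of 2 transport kinesins (KIF3B). In the 2 groups of highest GC content, where 21.9% and 45.4% of all genes were higher, 0 of 3 mitotic kinesins (KIF18B, KIFC1 and KIF22) and 4 of 6 transport kinesins were. Mitotic kinesins had the lower GC content, a median of 44.3% against 51.1% for transport kinesins.

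Among motors that act on the spindle poles and on the bipolar spindle, KIF11, also known as Eg5, slides antiparallel microtubules apart and is required for bipolarity. KIF11 (ENSG00000138160, chr10:92593286-92655395) was at 29.1, 20.1 and 31.0 CPM across controls and 16.5, 17.1 and 17.9 CPM after treatment. Every treated library lay below every control, with control replicate 2 the nearest. KIF11 fell by 0.64 ± 0.16 (SE) on the log2 scale (adjusted p = 0.00497, edgeR), and stood at -0.08 with the correction (adjusted p = 0.758). KIF15, which can stand in for KIF11 in keeping the spindle bipolar, was at 13.9, 7.41 and 9.73 CPM across controls and 5.09, 4.93 and 6.93 CPM after treatment. The treated libraries all lay below the controls, which were the more widely spread. KIF15 fell by 0.87 ± 0.23 on the log2 scale (adjusted p = 0.00661), but missed the threshold when control replicate 1 was left out (0.0819) and under the correction (-0.38, adjusted p = 0.224). KIFC1, a minus-end-directed motor that clusters spindle poles and extra centrosomes, was at 119, 123 and 125 CPM against 136, 129 and 113 CPM. Its groups overlapped, at a log2 fold change of 0.04 ± 0.10 (adjusted p = 0.785). With the correction KIFC1 was called lower (-0.25, adjusted p = 0.0436), a call lost in all but 1 of the fits that left out a library.

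Motors that act on chromosomes and on the plus ends of microtubules included the kinesin call with the smallest p. KIF4A is a chromokinesin that shapes condensed chromosomes and sets the length of the spindle midzone. KIF4A (ENSG00000090889, chrX:70290090-70420832) was at 69.2, 55.1 and 64.7 CPM across controls and 36.8, 34.7 and 38.5 CPM after treatment. All treated values lay well below the lowest control. The means were 63.0 ± 7.20 CPM for controls and 36.7 ± 1.90 CPM for treated cells (SD, n = 3 each). The log2 fold change of KIF4A was -0.78 ± 0.12 (adjusted p = 0.000125, edgeR). With the correction KIF4A stood at -0.56 (adjusted p = 0.000483), and it was called lower in all 21 alternative fits. Its retrocopy KIF4B, on chromosome 5, had at most 13 reads in a library and was not tested; reads of near-identical copies may be split between them.

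KIF2C, known as MCAK, depolymerizes microtubules at centromeres to release faulty attachments. KIF2C (ENSG00000142945, chr1:44739818-44767767) was at 153, 135 and 135 CPM across controls and 109, 109 and 110 CPM after treatment. The treated libraries were nearly equal to each other and all below the controls. The log2 fold change of KIF2C was -0.37 ± 0.10 (adjusted p = 0.0073) and did not shrink with the correction (-0.37, adjusted p = 0.00321). As with KIF4A, the call held in all 21 alternative fits.

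KIF18A, a plus-end motor that dampens chromosome oscillations, was at 4.65, 3.86 and 5.98 CPM across controls and 2.35, 3.56 and 3.44 CPM after treatment. The groups did not overlap, but the spread was wide and the test did not pass (-0.63 ± 0.27, adjusted p = 0.0723), except without control replicate 2. Its relative KIF18B, which shortens astral microtubules, was at 39.4, 51.8 and 53.3 CPM against 37.7, 43.6 and 36.9 CPM. Control replicate 1 lay within the range of the treated libraries, and the test did not pass (-0.29 ± 0.13, adjusted p = 0.0899), except without that library. With the correction KIF18B was called lower (-0.58, adjusted p = 0.000975), and again in all 6 corrected fits that left out a library. KIF22, which pushes chromosome arms away from the poles, had the highest control level of any kinesin per kilobase. KIF22 was at 170, 192 and 176 CPM across controls and 224, 194 and 195 CPM after treatment. All treated values lay just above the controls, at 0.19 ± 0.10 (adjusted p = 0.16), and the sign was negative with the correction (-0.13, adjusted p = 0.256).

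Motors of the midzone and of cytokinesis included the largest fold change among the tested mitotic kinesins. KIF23, or MKLP1, forms the centralspindlin complex with RACGAP1 and bundles midzone microtubules. KIF23 (ENSG00000137807, chr15:69414246-69448427) was at 30.02, 24.4 and 26.7 CPM across controls and 15.7, 12.9 and 14.8 CPM after treatment. The groups were far apart relative to their spread: 27.0 ± 2.84 against 14.5 ± 1.43 CPM (SD, n = 3 each). KIF23 fell by 0.90 ± 0.15 on the log2 scale (adjusted p = 0.000281) and stood at -0.47 with the correction (adjusted p = 0.022). The corrected call was lost without control replicate 1, treated replicate 2 or treated replicate 3 (adjusted p up to 0.122).

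KIF20A, or MKLP2, brings the chromosomal passenger complex to the midzone. KIF20A (ENSG00000112984, chr5:138178719-138187715) was at 82.1, 82.5 and 89.0 CPM across controls and 64.3, 70.4 and 66.0 CPM after treatment. No treated library reached a control, and the log2 fold change was -0.34 ± 0.10 (adjusted p = 0.0154). The call was lost with the correction (-0.24, adjusted p = 0.0574) and without control replicate 3, treated replicate 1 or treated replicate 3 (up to 0.0724) and in the fit with a replicate block. KIF20B, needed late in cytokinesis, was at 7.12, 7.01 and 9.11 CPM against 3.38, 5.42 and 4.73 CPM. Again no treated library reached a control, and KIF20B fell by 0.78 ± 0.23 on the log2 scale (adjusted p = 0.0123). KIF14, which binds the midzone and citron kinase, was at 8.25, 8.79 and 9.35 CPM against 5.05, 5.67 and 5.94 CPM, again without overlap. It fell by 0.66 ± 0.20 (adjusted p = 0.0133). Neither call held with the correction: KIF20B was at -0.23 (adjusted p = 0.525) and KIF14 at -0.13 (adjusted p = 0.729). Both were also lost without control replicate 3 or treated replicate 1 (up to 0.0847 and 0.0602). KIF2B, known from testis, had 0 reads in every library.

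**Figure D3:**
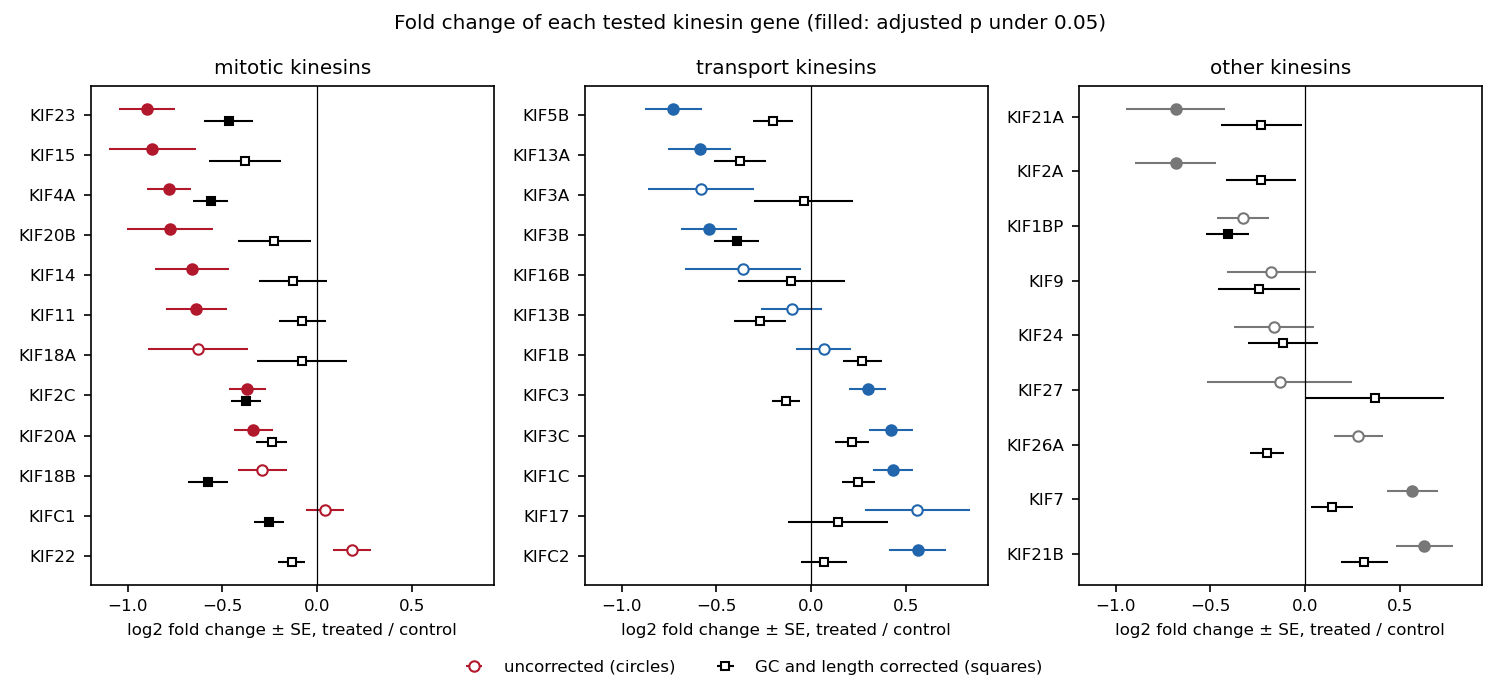
Log2 fold change, treated over control, with its standard error for each tested kinesin gene in 3 panels by class, circles before and squares after the correction, filled where the adjusted p was under 0.05. Circles of the mitotic panel lie mostly left of 0, and KIF23, KIF4A, KIF2C, KIF18B and KIFC1 have filled squares; in the transport panel KIF3B alone does.

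Beside these falls, the 4 genes chosen as markers of proliferating cells were read from the same fit. TOP2A (-0.87 ± 0.16), PCNA (-0.55 ± 0.10) and MKI67 (-0.50 ± 0.15) fell, and the replication licensing gene MCM2 (0.33 ± 0.10) rose. With the correction TOP2A (-0.34, adjusted p = 0.0363) and PCNA (-0.26, adjusted p = 0.0437) were lower, and MKI67 (-0.34, adjusted p = 0.0563) and MCM2 (0.04, adjusted p = 0.811) did not pass. Their summed level was 473 to 511 CPM across controls and 447 to 461 CPM after treatment. In bulk RNA, fewer cells in mitosis and less mRNA per mitotic cell cannot be told apart. The summed level of all 14 mitotic kinesins, in which KIF22, KIF2C and KIFC1 weigh most, was 726, 711 and 736 CPM across controls and 656, 630 and 612 CPM after treatment.

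Without the correction the transport kinesins were called in both directions, 4 higher and 3 lower of 12 tested. With it 0 were higher and 1 lower. KIF5B, the ubiquitous heavy chain of conventional kinesin, carries mitochondria, lysosomes and vesicles with its light chains. KIF5B (ENSG00000170759, chr10:32009010-32056431) was at 42.7, 33.2 and 45.9 CPM across controls and 19.7, 27.8 and 26.0 CPM after treatment. The groups did not overlap, and treated replicate 1 was the lowest. KIF5B fell by 0.73 ± 0.15 on the log2 scale (adjusted p = 0.00133) and stood at -0.20 with the correction (adjusted p = 0.255). Of its neuronal paralogues, KIF5A had at most 6 reads in a library and KIF5C had 0 reads in every library.

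Kinesin-2 motors pair KIF3A with KIF3B or KIF3C and serve cilia and vesicle traffic. KIF3B (ENSG00000101350, chr20:32277664-32335011) was at 57.4, 38.9 and 54.1 CPM across controls and 29.7, 41.0 and 32.8 CPM after treatment. Treated replicate 2 lay above control replicate 2, so the groups overlapped. KIF3B fell by 0.54 ± 0.15 on the log2 scale (adjusted p = 0.00818) and was the only transport kinesin called with the correction (-0.39, adjusted p = 0.0355). The uncorrected call was lost without control replicate 1 or treated replicate 1 (up to 0.0562), and the corrected one in 4 of the 6 fits that left out a library. KIF3C was at 34.5, 38.4 and 40.1 CPM across controls and 54.2, 48.1 and 49.0 CPM after treatment, all above the controls. It rose by 0.42 ± 0.12 (adjusted p = 0.00863), but missed the threshold when treated replicate 1 was left out (0.0509) and under the correction (0.22, adjusted p = 0.141). Per kilobase, KIF3C reads were 0.572, 0.941 and 0.707 times those of KIF3B in the controls and 1.74, 1.12 and 1.42 times in the treated libraries. Reads per kilobase were thus higher for KIF3B in each control and for KIF3C in each treated library, by least in each group's replicate 2. This is 1 of 9 paralogue pairs compared after values were seen, of which 3 had every treated ratio above every control and 6 overlapped. The ratios carry no correction, and KIF3C transcripts are the richer in GC (55.5% against 47.6%). In all 9 pairs the gene set on top of the ratio was the richer in GC. Because fold changes rose with GC content, the direction of these separations was tied to how the pairs were set. How often other gene pairs separate was not tested. The shared partner KIF3A was at 3.19, 3.41 and 4.50 CPM against 2.13, 2.91 and 2.38 CPM, without overlap, but did not pass (-0.58 ± 0.28, adjusted p = 0.112). KIF17, a homodimeric kinesin-2 of dendrites and cilia, was at 2.44, 2.18 and 2.25 CPM against 3.83, 3.14 and 3.19 CPM, also without overlap, and did not pass either (0.56 ± 0.28, adjusted p = 0.122).

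Kinesin-3 motors carry vesicles over long distances. KIF1C, a fast carrier of dense-core vesicles and integrins, had the highest level per kilobase among the transport kinesins. KIF1C (ENSG00000129250, chr17:4997948-5028401) was at 293, 367 and 313 CPM across controls and 472, 411 and 429 CPM after treatment. Every treated library lay above every control, at 324 ± 38.3 against 437 ± 31.5 CPM (SD, n = 3 each). KIF1C rose by 0.43 ± 0.11 on the log2 scale (adjusted p = 0.00432), which held in all 13 uncorrected alternatives, but stood at 0.25 with the correction (adjusted p = 0.0701). Its paralogue KIF1B, a motor of mitochondria and synaptic vesicle precursors, was at 32.2, 30.7 and 45.3 CPM against 33.6, 39.0 and 40.7 CPM. The groups overlapped (0.07 ± 0.14, adjusted p = 0.758). KIF13A, which takes recycling endosomes to the cell periphery, was at 35.0, 21.7 and 26.9 CPM across controls and 15.7, 21.0 and 18.9 CPM after treatment. The groups met almost without a gap, and KIF13A fell by 0.59 ± 0.17 (adjusted p = 0.0107). The call was lost without control replicate 1 or treated replicate 1 (up to 0.106) and with the correction (-0.38, adjusted p = 0.0874). KIF13B (-0.10 ± 0.16, adjusted p = 0.658) and the early endosome motor KIF16B (-0.36 ± 0.31, adjusted p = 0.394) had overlapping groups. KIF1A, a neuronal motor, had 0 reads in every library.

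The C-terminal motors KIFC3 and KIFC2 run toward microtubule minus ends. KIFC3, a motor of apical transport and of cell junctions, was at 244, 277 and 245 CPM across controls and 322, 306 and 315 CPM after treatment. The groups did not overlap, and KIFC3 rose by 0.30 ± 0.10 on the log2 scale (adjusted p = 0.0222). With the correction its sign turned (-0.13, adjusted p = 0.268), and the uncorrected call was lost without control replicates 1 or 3 or treated replicates 1 or 3 (up to 0.0891) and in the fit with a replicate block. KIFC2, known from dendrites, was at 24.4, 28.1 and 24.9 CPM against 42.5, 28.4 and 43.5 CPM. Treated replicate 2 lay only just above the highest control. KIFC2 rose by 0.56 ± 0.15 (adjusted p = 0.00718), but stood at 0.07 with the correction (adjusted p = 0.791) and missed the threshold without treated replicate 3 (0.0592).

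**Figure D4:**
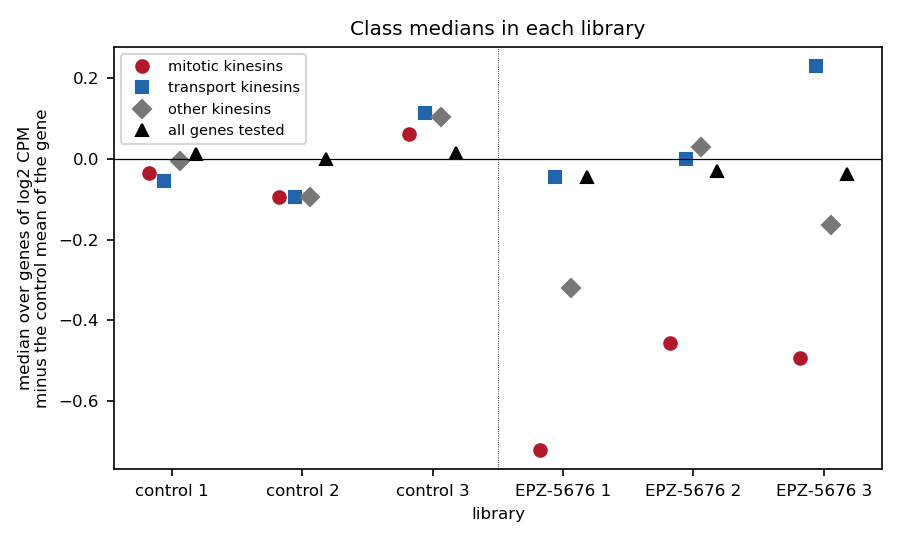
For each library, the median over the tested genes of a class of log2 CPM minus the control mean of the same gene, with 1 symbol per class and triangles for all tested genes. The mitotic medians were -0.72, -0.46 and -0.49 in the treated libraries against -0.04, -0.10 and 0.06 in the controls, while the transport medians were -0.04, -0.0013 and 0.23 against -0.05, -0.09 and 0.11.

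Among the other kinesins, KIF7 and KIF21B rose and KIF21A and KIF2A fell. KIF7, a ciliary regulator of Hedgehog signalling, was at 21.0, 24.6 and 21.7 CPM across controls and 36.1, 33.2 and 30.2 CPM after treatment. The groups did not overlap, and the log2 fold change was 0.57 ± 0.13 (adjusted p = 0.00343). KIF21B, which restrains microtubule growth, was at 12.6, 13.1 and 14.3 CPM against 21.6, 19.6 and 20.7 CPM, again without overlap. It rose by 0.63 ± 0.15 (adjusted p = 0.00342), the largest rise among tested members. Both rises held in all 13 uncorrected alternatives and in none of the 8 corrected ones (0.14 and 0.31 with the correction, adjusted p = 0.467 and 0.113).

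KIF21A, a regulator of microtubule growth at the cell cortex, was at 12.6, 5.30 and 10.0 CPM across controls and 4.22, 6.81 and 6.30 CPM after treatment. Control replicate 2 lay among the treated libraries. The call (-0.68 ± 0.26, adjusted p = 0.0469) was lost in 4 of the 6 fits that left out a library and in those with upper-quartile scaling, DESeq2, limma-voom and a replicate block, and with the correction (-0.23, adjusted p = 0.56). KIF21B per kilobase was 0.831, 2.07 and 1.19 times KIF21A in the controls and 4.27, 2.40 and 2.74 times in the treated libraries. Every treated ratio lay above every control, again without correction and with KIF21B the richer in GC (59.7% against 42.1%). KIF2A, a depolymerase of spindle poles and growing neurites, was at 9.35, 7.38 and 10.5 CPM against 4.83, 6.98 and 5.13 CPM. The groups did not overlap, and KIF2A fell by 0.68 ± 0.21 (adjusted p = 0.0178). It missed the threshold without control replicates 1 or 3 or treated replicates 1 or 3 (up to 0.106) and with the correction (-0.23, adjusted p = 0.481).

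The kinesin-binding protein gene KIF1BP was at 27.6, 24.8 and 27.2 CPM across controls and 21.3, 22.0 and 20.2 CPM after treatment. All treated values lay below the controls, yet the test passed only with the correction (-0.33 ± 0.14, adjusted p = 0.0661, and -0.41, adjusted p = 0.0216), and that call was lost in 5 of the 6 corrected fits that left out a library. KIF26A, an atypical kinesin without motor activity, was abundant at 107, 150 and 141 CPM against 185, 134 and 166 CPM, with overlapping groups (0.28 ± 0.13, adjusted p = 0.093), and passed only without control replicate 2 or treated replicate 2. KIF24 (-0.17 ± 0.21), which removes microtubules at centrioles, KIF9 (-0.18 ± 0.24), known from motile cilia, and the KIF7 paralogue KIF27 (-0.13 ± 0.39) did not pass, with adjusted p of 0.585, 0.595 and 0.819. The others were not tested: KIF26B had at most 12 reads in a library, KIF12 6 and KIF25 2, while KIF6 and KIF19 had 0. A count of 0 allows up to 3 reads, or 0.0754 to 0.0965 CPM depending on the library, for counting error only.

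By level per kilobase of the table's gene length, KIF22 (41.6 ± 2.57 CPM per kilobase, SD, n = 3), KIF2C (38.7 ± 2.82), KIF1C (37.8 ± 4.46) and KIFC1 (36.6 ± 0.982) led the controls and lay within their spread of one another, apart from KIF22 and KIFC1. KIFC3 (26.6 ± 1.96), KIF20A (21.4 ± 0.982) and KIF26A (19.7 ± 3.36) followed. In the treated cells KIF1C (50.9 ± 3.67) and KIF22 (47.4 ± 3.95) led, and KIF2C (29.95 ± 0.106) lay below KIFC1 (37.6 ± 3.55) and KIFC3 (32.7 ± 0.833).

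Several members overlap other expressed genes, and the counting may not have used strand: the libraries mark it through dUTP in the second strand, but no label or header says how reads were counted. KIF4A overlaps PDZD11, KIF20A overlaps BRD8 and CDC23, KIF7 overlaps TICRR, KIF18A overlaps METTL15, KIF24 overlaps UBAP1, KIF9 overlaps KLHL18 and KIF9-AS1, and KIF2A overlaps DIMT1, all on the opposite strand. KIF15 overlaps TMEM42 and KIF2A overlaps IPO11 on the same strand. PDZD11 had a mean of 3176.2 reads per library against 1829.8 for KIF4A, and TMEM42 1005.0 against 296.3 for KIF15. BRD8 and CDC23 had 1874.8 and 1113.7, fewer than the 2758.3 of KIF20A. The levels and fold changes of these members are uncertain to the extent that reads were shared, which was not tested.

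Kinesins that lack the KIF name were read from the same fit. CENPE, the kinetochore kinesin that brings chromosomes to the metaphase plate, fell from 3.54 to 1.76 CPM (log2 fold change -0.9997 ± 0.32, adjusted p = 0.0193, and -0.43 with the correction, adjusted p = 0.407), and STARD9 (-0.18 ± 0.20) did not pass. The CENPE call was lost without control replicates 1 or 3 or treated replicates 1 or 2. Of 20 partners of mitotic kinesins, 11 were lower and 0 higher, with a median log2 fold change of -0.52, against 18.7% of all tested genes lower and 15% higher. With the correction 7 were lower, against 5.58% of all genes. The cleavage furrow scaffold ANLN (-1.04 ± 0.15), the spindle assembly factor TPX2 (-0.56 ± 0.10), the microtubule bundler DLGAP5 (-0.97 ± 0.18) and the microtubule polymerase CKAP5 (-0.64 ± 0.13) fell. With the correction ANLN (-0.52), TPX2 (-0.37) and CKAP5 (-0.29) were still called lower, and DLGAP5 was not (-0.41, adjusted p = 0.0706). By control mean, the most abundant partners that did not pass were BIRC5 (-0.06 ± 0.10) and AURKB (0.06 ± 0.10), both of the chromosomal passenger complex that KIF20A transports.

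Kinesin light chains and cargo adaptors were called in both directions, 8 higher and 4 lower of 21 tested, or 38.1% and 19% against 15% and 18.7% of all tested genes. With the correction 2 of the 21 were higher and 3 lower, against 5.4% and 5.58% of all tested genes. The light chain KLC3 rose from 6.30 to 17.4 CPM (1.47 ± 0.18, adjusted p = 2.51e-05) and the JNK scaffold MAPK8IP1 rose as well (1.16 ± 0.17). Both rises held with the correction (1.13 and 0.74). The mitochondrial adaptor RHOT1 (-0.95 ± 0.18), which helps link kinesin-1 to its cargo, fell, also with the correction (-0.47, adjusted p = 0.0337). By control mean, MAPK8IP3 (0.14 ± 0.10) and MADD (0.25 ± 0.10) were the most abundant that did not pass, but with the correction the sign of MAPK8IP3 turned and it was called lower (-0.30, adjusted p = 0.0123).

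In dynein and dynactin, the minus-end motor that works against kinesins, 5 of 23 tested genes were higher and 6 lower, shares of 21.7% and 26.1% that lie near the 15% and 18.7% of all tested genes. With the correction 5 of the 23 were higher, again 21.7%, and 1 lower, against 5.4% and 5.58% of all tested genes. The 6 lower were 2 without control replicate 1. DYNC1I2 (-0.98 ± 0.17) and ACTR10 (-0.69 ± 0.13) fell and DCTN1 (0.51 ± 0.10) and ACTR1A (0.44 ± 0.10) rose, while the heavy chain DYNC1H1 (-0.03 ± 0.13) and ACTR1B (0.17 ± 0.10) did not pass. The calls of DYNC1I2 (-0.52), DCTN1 (0.33) and ACTR1A (0.30) held with the correction, and that of ACTR10 did not (-0.18, adjusted p = 0.27). Alpha and beta tubulins form the track on which these motors run, and the tubulin list also holds TUBG1, TUBG2, TUBD1 and TUBE1, which do not. Of the 15 tested tubulins 9 were called higher, TUBG1 and TUBG2 among them, and 0 lower, against 15% of all tested genes higher. With the correction 3 tubulins were higher, against 5.4% of all tested genes. The tested tubulins had a median GC content of 57.8%. In the 2 GC groups around it (52.3 to 58.5% and 58.5 to 83.9%) 21.9% and 45.4% of all tested genes were higher. TUBA1A (0.75 ± 0.10), TUBA4A (0.54 ± 0.10), TUBB2A (0.52 ± 0.11) and TUBB4B (0.43 ± 0.10) rose, and TUBA1B (0.05 ± 0.10) and TUBB6 (0.19 ± 0.09) did not pass. With the correction TUBA1A (0.68) and TUBA4A (0.25) were still called, and TUBB2A (0.21, adjusted p = 0.15) and TUBB4B (0.10, adjusted p = 0.48) were not. Tubulin genes are near-identical to one another in part, so their counts are uncertain.

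**Figure D5:**
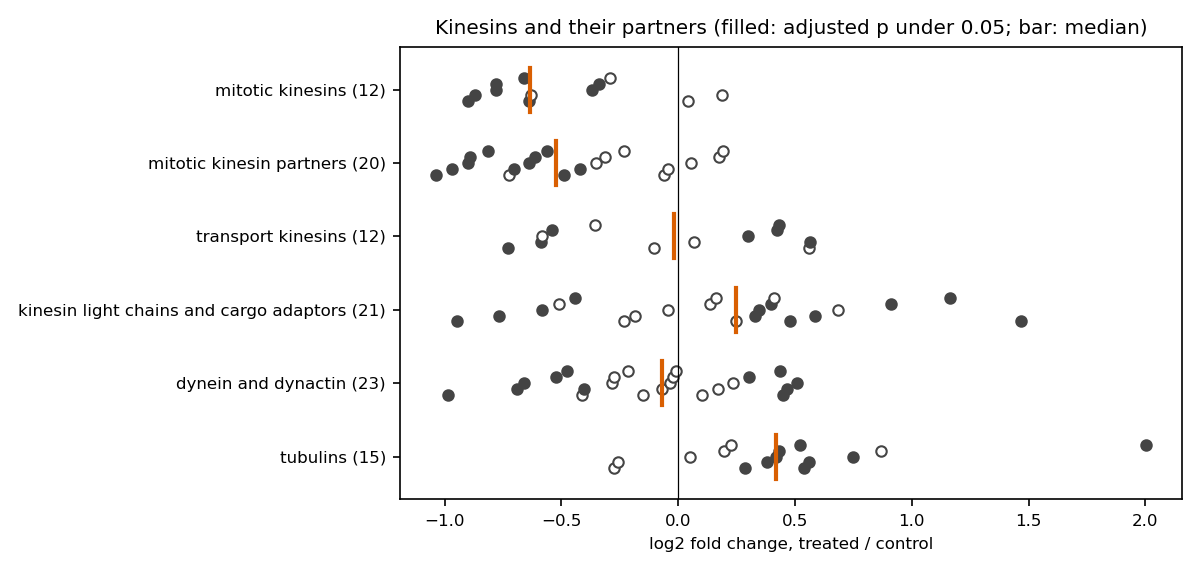
Log2 fold change, treated over control, of each tested gene in the mitotic and transport kinesins and in 4 lists of partners, filled where the adjusted p was under 0.05, with an orange bar at the median and the number of tested genes beside each name. Mitotic kinesins and their partners have medians of -0.63 and -0.52 and no filled point above 0, while light chains and adaptors (median 0.25) and transport kinesins (-0.02) have filled points on both sides and tubulins (0.42) only above 0.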

How the data were processed

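The deposited table gives unnormalized whole-number read counts, 1 column per library, beside each gene's length. HISAT2 2.2.1 and GRCh38 are named as aligner and build per the submitters' processing notes; the counting tool and strand setting were not found in the labels or file headers. All 58735 genes had the start and end of GENCODE release 29, whose longest transcript per gene gave GC content and length. The test was that of edgeR 4.0.16 (R 4.3.3): filterByExpr by group (minimum count 10), TMM, robust dispersion and the two-sided quasi-likelihood test of all 6 libraries, with Benjamini-Hochberg adjusted p under 0.05 over 15496 genes. The SE is the size of the log2 fold change over the square root of F. The correction fits natural splines (5 degrees of freedom per property) to each library's log2 CPM deviations (prior count 2) and enters them as an offset; 9 tested genes without a transcript sequence were left uncorrected. The fits were also run on simulated data, the outcome of which is not reported here. A total of 21 alternative settings included DESeq2 1.42.0, limma 3.58.1 (voom), scaling, filters, a replicate block and each library left out. All members are named; of each partner list, up to 4 called genes with the smallest p and the 2 most expressed not called. CENPE and STARD9 were named whatever their result. One gene that this rule names is not reported here. The members, lists and alternatives were chosen with earlier results of these data known; the motifs and paralogue pairs were chosen after values were seen. Promoter sequences are from RefSeq (GRCh38.p14). Matplotlib 3.10.9 drew the figures.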

Additional observations from a re-analysis of the deposited data

How the results depend on the processing

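Under the 7 uncorrected fits that kept all 6 libraries and differed in scaling, filter, tool or the replicate block, no fold change of a tested kinesin changed sign. The counts of lower kinesins other than mitotic or transport fell from 2 to 1 with upper-quartile scaling, DESeq2, limma-voom and the replicate block, and lower dynein genes fell from 6 to 3 with the block. The labels do not say whether the replicate numbers pair the samples. Same-numbered libraries deviated from their group means with correlations of -0.111, -0.093 and 0.047, and not every library correlated best with its own number. Correlations this weak, from 3 libraries per group, found no pairing but cannot show that there was none. With the replicate block 1677 genes were called higher and 2219 lower, and 5 kinesins higher and 11 lower, 7 of these mitotic. The median of the other kinesins was -0.0048 without a low-count filter.

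With the GC and length correction, 837 genes of all tested were called higher and 864 lower, 0 kinesins higher and 7 lower, and 5 mitotic kinesins lower. Medians moved to -0.1997 for all kinesins and -0.2472 for mitotic ones. Transport kinesins had 0 higher calls and 1 lower call, other kinesins 0 and 1, mitotic partners 7 lower, adaptors 2 higher, dynein genes 1 lower and tubulins 3 higher. Adding the replicate block to that correction gave 689 genes higher and 685 lower, 0 kinesins higher and 5 lower, 4 mitotic kinesins lower, and medians of -0.1921 and -0.248. Transport kinesins then had 0 higher and 0 lower calls, other kinesins 0 and 1, mitotic partners 6 lower, adaptors 2 higher and 1 lower, dynein genes 1 lower and tubulins 3 higher.

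Leaving out 1 library at a time, the calls ranged from 1350 to 2780 higher and 1753 to 3167 lower over all genes, and from 397 to 856 and 512 to 815 with the correction. Without and then with the correction, kinesins called higher ranged from 4 to 7 and 0 to 1, and lower from 6 to 14 and 3 to 8. Mitotic kinesins called lower ranged from 5 to 9 and 3 to 5, transport kinesins higher from 2 to 4 and 0 to 1 and lower from 1 to 3 and 0 to 2, and other kinesins higher from 2 to 3 and always 0, and lower from 0 to 2 and 0 to 1. Mitotic partners called lower ranged from 9 to 12 and 2 to 7, adaptors higher from 6 to 10 and always 2, and lower from 3 to 5 and 0 to 3, dynein genes lower from 2 to 8 and always 1, and tubulins higher from 7 to 9 and 1 to 3. The medians ranged from -0.3654 to -0.2537 and -0.198 to -0.1391 for all kinesins, from -0.6949 to -0.4823 and -0.2775 to -0.2249 for mitotic kinesins, from -0.0731 to 0.1144 and -0.0882 to 0.0184 for transport kinesins, and from -0.311 to -0.038 and -0.1647 to -0.0886 for other kinesins.

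The correction turned the sign of 5 kinesins, none of which passed the test with both signs. With the correction alone and with the block added, the log2 fold changes were -0.1332 and -0.1324 for KIFC3, -0.1347 and -0.1352 for KIF22, -0.2024 and -0.206 for KIF26A, -0.2542 and -0.2559 for KIFC1, and 0.368 and 0.352 for KIF27. Leaving out 1 library at a time, without and then with the correction, the ranges were 0.2688 to 0.3786 and -0.167 to -0.1008 for KIFC3, 0.116 to 0.252 and -0.1667 to -0.1048 for KIF22, 0.1571 to 0.3991 and -0.2834 to -0.1168 for KIF26A, -0.0173 to 0.1143 and -0.2937 to -0.1822 for KIFC1, and -0.4539 to 0.1708 and 0.0923 to 0.6483 for KIF27. The sign also turned when single libraries were left out for KIF1B (-0.0172 to 0.2637 and 0.1978 to 0.3793), KIFC2 (0.4585 to 0.7373 and -0.0412 to 0.213), KIF11 (-0.7899 to -0.5183 and -0.1675 to 0.015), KIF9 (-0.2795 to 0.0105 and -0.3411 to -0.0772), KIF18A (-0.7458 to -0.4463 and -0.1753 to 0.085), KIF16B (-0.7867 to -0.1732 and -0.509 to 0.0923) and KIF3A (-0.7146 to -0.4164 and -0.1898 to 0.0724).

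Mitotic kinesins, mitotic partners and non-KIF kinesins had 0 genes called higher in all 21 alternatives. The cause of the difference between corrected and uncorrected calls was not tested beyond the fit itself, which removes every trend with GC content and length. The transport median lay near 0 on either side of it, for example at 0.0243 with RLE scaling. KIF22, KIF1BP, KIF18A, KIF3A and KIF17 did not pass although their groups did not overlap.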
